A study of Mus musculus with 10 samples.

Results

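Voltage-gated sodium and calcium channels carry the currents with which neurons and muscle fire and contract, and *Sox10*+ neural crest progenitors (NCPs) of the pelvic ganglia give rise to both neurons and glia. The genes described here are all those whose platform symbol names a sodium channel pore or beta subunit (Scn) or a calcium channel pore, alpha2delta, beta or gamma subunit (Cacna1, Cacna2d, Cacnb, Cacng), taken from probe sets with a single symbol. The rule found 35 genes (11 sodium, 24 calcium) of 19937, on 51 probe sets, and for each gene the probe set that was brightest on average across the 10 arrays was used. All 35 symbols matched a RefSeq gene. *Scn4a*, *Cacnb3* and *Cacng6* are not analysed here.

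A sodium or calcium channel is built around a large pore-forming subunit that opens when the membrane depolarizes. Beta and alpha2delta subunits bring the pore to the membrane and set how it opens. Sodium channels start the action potential, while calcium channels couple it to transmitter release, contraction and gene expression. Most gamma subunits are better known as TARPs, which escort AMPA-type glutamate receptors. Autonomic neurons acquire these channels as they differentiate, whereas progenitors and glia are not known for firing.

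NCPs were taken from lower urogenital tract (labelled E13, embryonic day 13) of C3Fe mice carrying the *Sox10*-H2BVenus transgene, dissociated in Accumax and sorted by flow cytometry for the nuclear Venus signal. The reporter is driven by *Sox10* sequences and, according to the study, is retained in glia and for a short time in new neurons, so the sorted cells can include both. Isolates were read from codes in the array titles. The 3 NCP arrays carry 3 RNA isolates, each from pooled dissected tissue. The 7 total embryo arrays carry 2 RNA isolates, hybridized to 4 and 3 arrays. The code on 1 of those 4 is spelled slightly differently and was taken as the same isolate. The labels give neither stage nor genotype for total embryo. All 3 NCP arrays share the date in their titles with total embryo replicate 1 only, and every array used the mouse Gene 1.0 ST design. Repeat arrays of an RNA isolate do not measure the spread between embryos, and p-values over the 7 arrays are smaller than isolates would give.

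The NCP arrays held a narrower range of values than the total embryo arrays. The standard deviation (SD) over all probe sets was 0.97 to 1.13 on NCP arrays and 1.78 to 1.91 in total embryo. A measured floor was taken from the odorant and vomeronasal receptor genes (1204 probe sets), which most tissues do not use, and set at their 95th percentile on each array. The median of housekeeping genes lay 3.27, 0.62 and 4.31 log2 units above the receptor median on NCP arrays 1, 2 and 3, against 6.79 to 7.26 on total embryo. NCP array 2 therefore stands apart, and test counts are also given without it. *Sox10* itself was higher in NCPs by 1.0 (log2, limma adjusted p = 0.000278). Of the 9 neural crest and glial markers measured, 4 were higher (also *Foxd3*, *Cdh19* and *Gfap*) and 3 lower (*Ednrb*, *Erbb3* and *Fabp7*). The same test called 39.6% of all probe sets higher and 27.5% lower.

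None of the 35 channel genes stood above the floor in NCPs on average over all 3 arrays. By its mean percentile among the receptor probe sets over the arrays of a group, no channel gene passed the 95th percentile in NCPs, against 24 in total embryo. On single NCP arrays 4, 4 and 5 channel genes passed it (arrays 1, 2 and 3), while 23 to 24 did on each total embryo array. This was not particular to channels, since 1901 of all 19937 genes passed in NCPs and 14041 in total embryo. Fewer cells of a type and less RNA per cell cannot be told apart in such bulk samples. The genes that passed on an NCP array also differed between arrays. *Cacng4* passed on arrays 1 and 3 (percentiles 96.5 and 99.3), and only array 2 (70.7) held its mean under the 95th. *Cacng7* passed on arrays 2 and 3, and no gene on all 3.

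The plot of every channel gene on every array shows both groups against this floor.

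**Figure D1:**
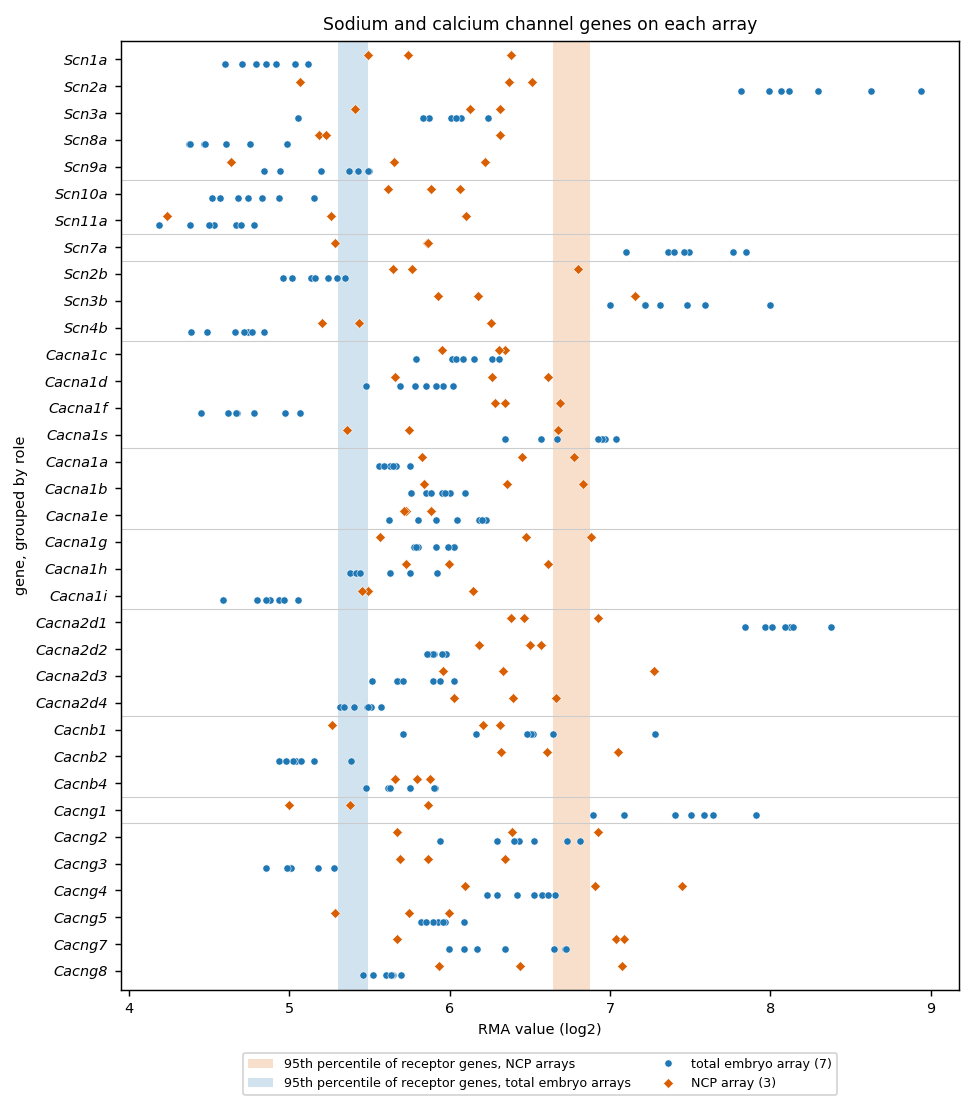
Deposited RMA values (log2, horizontal axis) of the 35 channel genes on 3 NCP arrays (diamonds) and 7 total embryo arrays (circles), with shaded bands for the range over arrays of the receptor genes' 95th percentile in each group. In NCPs most points lie left of or within their band, while 24 genes in total embryo have a mean percentile beyond the 95th.

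The sequences shown are RefSeq windows from 250 bases before to 50 after a transcription start (GRCm38.p6), given for the genes that passed the tests below in both forms of the data and have such a window. Capitals mark CAGCTG, an E-box of the kind that basic helix-loop-helix factors bind. *Cacnb2* encodes a beta subunit of high-voltage calcium channels, and its windows lie at chr2:14604056-14604355 and chr2:14823842-14824141, both on the plus strand. *Scn7a*, a sodium-sensing relative of the voltage-gated channels, has its window at chr2:66784861-66785160 on the minus strand. *Cacna1f*, the pore of the retinal photoreceptor L-type channel, has its window at chrX:7606853-7607152 on the plus strand.
Cacnb2 upstream start: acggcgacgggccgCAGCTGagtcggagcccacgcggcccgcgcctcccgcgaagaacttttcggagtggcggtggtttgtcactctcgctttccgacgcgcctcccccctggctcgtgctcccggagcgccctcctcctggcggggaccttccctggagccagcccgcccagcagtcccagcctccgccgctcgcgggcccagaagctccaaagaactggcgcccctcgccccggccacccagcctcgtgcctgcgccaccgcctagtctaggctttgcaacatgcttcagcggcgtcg
Cacnb2 downstream start: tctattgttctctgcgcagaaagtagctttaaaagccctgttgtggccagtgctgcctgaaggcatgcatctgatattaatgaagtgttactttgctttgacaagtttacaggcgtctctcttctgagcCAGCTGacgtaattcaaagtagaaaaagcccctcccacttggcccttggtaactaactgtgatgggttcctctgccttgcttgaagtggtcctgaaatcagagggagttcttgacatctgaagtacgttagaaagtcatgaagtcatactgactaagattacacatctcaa
Scn7a: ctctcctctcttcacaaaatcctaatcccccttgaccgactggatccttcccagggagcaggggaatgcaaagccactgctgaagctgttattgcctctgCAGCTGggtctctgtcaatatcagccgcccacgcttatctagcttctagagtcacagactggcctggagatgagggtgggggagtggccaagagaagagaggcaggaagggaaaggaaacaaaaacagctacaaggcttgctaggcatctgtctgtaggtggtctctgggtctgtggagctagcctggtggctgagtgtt
Cacna1f: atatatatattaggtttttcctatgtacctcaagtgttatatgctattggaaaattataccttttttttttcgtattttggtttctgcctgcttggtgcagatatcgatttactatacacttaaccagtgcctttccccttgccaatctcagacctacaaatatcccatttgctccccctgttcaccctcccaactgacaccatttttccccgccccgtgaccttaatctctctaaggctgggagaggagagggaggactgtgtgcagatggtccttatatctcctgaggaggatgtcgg
The upstream *Cacnb2* window is 71.7% G or C, the downstream one 44%, the *Scn7a* window 54% and the *Cacna1f* window 43.7%. Both *Cacnb2* windows and the *Scn7a* window hold 1 CAGCTG, and the *Cacna1f* window holds none.

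Of the 35 genes, 27 had at least 1 promoter window, 37 windows in all. CAGCTG, which reads the same on both strands, occurred in 13 of the 37 (35.1%), against 16.3% of all 32851 windows. The 12 genes with it include some higher (*Cacnb2*, *Cacng3*, *Cacng8*), some lower (*Scn7a*, *Cacna1s*) and some not past the test (*Cacna1c*, *Cacnb4*). TTCAGCACC, a stretch of the RE1 element bound by the repressor REST, was searched on both strands and occurred in 0 of the 37 windows, against 0.371% of all windows. Some genes have more than 1 window, so windows are not independent, and a match in these letters is not a measured binding site.

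In the deposited values, 15 channel genes were higher in NCPs than in total embryo and 6 were lower (limma, Benjamini-Hochberg adjusted p under 0.05 over 28192 probe sets). The same test called 39.6% of all probe sets higher and 27.5% lower. Over the 19937 genes with 1 symbol and 1 probe set each, which are chosen as the channel genes were, 6932 were higher and 6188 lower. Among channel genes, 15 of 35 higher is near these shares, and 6 of 35 lower is below them. The median log2 fold change of the channel genes was 0.40, against 0.08 over the 19937 genes, 0.23 over all probe sets, 1.60 over olfactory and 1.97 over vomeronasal receptor genes. The 3 NCP values were all higher than the 7 total embryo values for 13 channel genes (31.8% of all probe sets did so) and all lower for 4 (21.5% of all). Without NCP array 2 the counts were 17 higher and 7 lower, beside 11119 and 7411 of all 28192 probe sets. With arrays averaged per RNA isolate, 3 against 2, they were 3 higher (*Cacna1f*, *Cacnb2*, *Scn10a*) and 4 lower (*Cacna2d1*, *Cacng1*, *Scn2a*, *Scn7a*), beside 5761 and 4183. Quantile normalization run again on the 10 arrays gave 5 higher and 6 lower, beside 6370 and 5648 of all probe sets. Cyclic loess gave 3 higher and 5 lower, beside 4777 and 4506. The balance of higher over lower calls thus depended on the scaling.

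The size and sign of each change followed how bright the gene was in total embryo. Across the 35 genes the log2 fold change and the total embryo mean had a Pearson correlation of -0.92, which is a description, since the genes share the arrays and the total embryo mean enters both axes. A trend in the same direction ran through all genes. When the 19937 genes were ordered by total embryo value and divided into 10 equal groups, the median log2 fold change ran from 1.86 in the dimmest group to -2.24 in the brightest. The 7 channel genes in the second dimmest group were set against a median of 1.16 there, and the 2 in the second brightest group against -1.45.

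**Figure D2:**
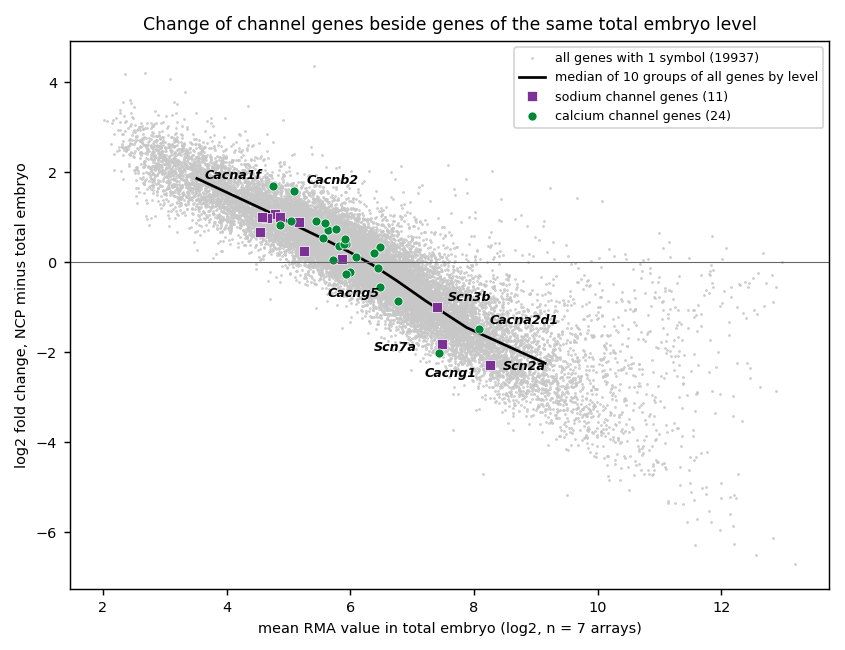
Log2 fold change (NCP minus total embryo, vertical axis) against the mean RMA value in total embryo (log2, horizontal axis) for 19937 genes (grey), 11 sodium channel genes (squares) and 24 calcium channel genes (circles), with a line through the medians of 10 groups of genes by level. The channel genes fall along the cloud of all genes, with *Cacnb2* and *Cacna1f* above the line and *Cacng1* and *Scn7a* below it.

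Each channel gene was therefore also set against genes of like brightness, in 2 ways. First, its fold change was ranked among the 500 genes nearest to it in total embryo value. *Cacnb2* lay at percentile 96.2 of its neighbours and *Cacng1* at 1.60, and these were the only channel genes beyond the 95th or under the 5th. That is 1 of 35 at each end, where by definition about 5% of genes lie. *Cacna1f* lay at 94.4 and *Scn7a* at 5.80. In all, 19 channel genes lay above the median of their neighbours and 16 below. Second, the trend on level was removed from every array (level adjustment, a lowess curve of the array's difference from the total embryo mean) and limma was run again. Level-adjusted values are differences relative to genes of the same brightness, not amounts of RNA.

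After level adjustment 2 channel genes were higher in NCPs, *Cacnb2* and *Cacna1f*, and 3 were lower, *Cacng1*, *Scn7a* and *Cacng5* (limma, adjusted p under 0.05). Over all probe sets, 10.3% were called higher and 8.29% lower, so the channel counts lie near or under the background share in each direction. The median level-adjusted change of the 35 genes was 0.0034, and 18 of 35 were positive. Of the 21 genes called in the deposited values, 17 were no longer called. Without NCP array 2, 5 were higher (also *Cacna2d4*, *Cacng4*, *Cacng8*) and 5 lower (also *Cacna1s*, *Scn11a*), beside 3856 and 3459 of all 28192 probe sets. With arrays averaged per RNA isolate no channel gene was called by limma (0 higher and 2 lower at an unadjusted p under 0.05), nor when only the total embryo arrays of 1 isolate were used. Fewer probe sets of any kind were called in these runs. Of 28192, 32 were higher and 1 lower with averaging. The isolate of 3 arrays gave 327 and 89, and the isolate of 4 gave 1294 and 686. The direction of the 5 named genes was unchanged in those runs.

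**Figure D3:**
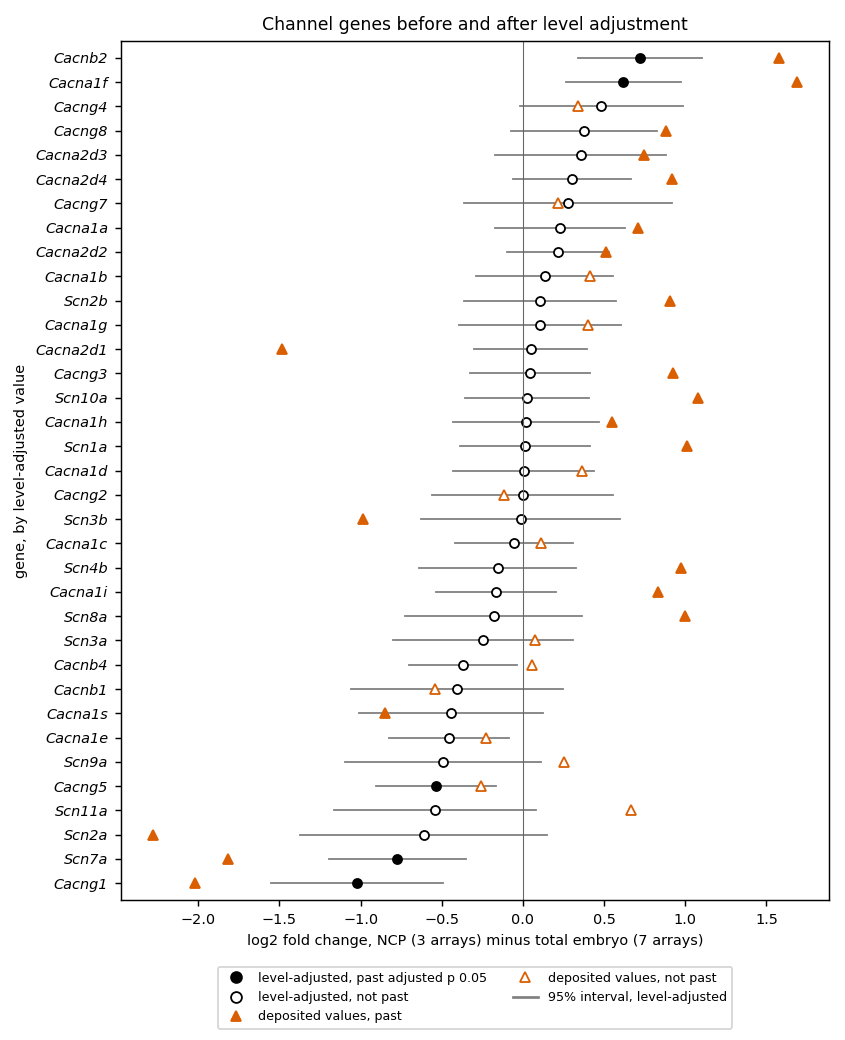
Log2 fold change of each channel gene (NCP, n = 3 arrays, minus total embryo, n = 7 arrays) in the deposited values (triangles) and after level adjustment (circles, with 95% intervals from limma), filled where the adjusted p was under 0.05. The deposited changes run from -2.28 to 1.69, and after adjustment from -1.02 to 0.72, with 2 genes filled to the right of 0 and 3 to the left.

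*Cacnb2* had the largest level-adjusted increase among the channel genes. It read 7.05, 6.61 and 6.32 on NCP arrays 1, 2 and 3, and 4.94 to 5.38 on total embryo (median 5.04). The groups do not overlap. The log2 fold change was 1.57 (SE 0.18, adjusted p = 7.69e-06 by limma) in the deposited values and 0.72 (95% interval 0.34 to 1.1, adjusted p = 0.0138) after level adjustment. The 500 neighbours had a median of 0.86. Only NCP array 1 passed the floor, at percentile 97.3 of the receptor probe sets, and the mean percentile was 91.9 in NCPs and 90.4 in total embryo.

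*Cacna1f* read 6.34, 6.69 and 6.28 on the NCP arrays and 4.45 to 5.07 on total embryo (median 4.68), again without overlap. Its fold change was 1.69 (SE 0.18, adjusted p = 3.67e-06 by limma) in the deposited values and 0.62 (95% interval 0.26 to 0.97, adjusted p = 0.0204) after level adjustment. No array of either group put it above the floor, with mean percentiles of 89.3 in NCPs and 82.9 in total embryo. The difference is thus between values that both lie in the range of the receptor genes.

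*Cacng1*, the gamma subunit of the skeletal muscle calcium channel, fell the most after adjustment. It read 5.00, 5.87 and 5.38 on the NCP arrays and 6.90 to 7.91 on total embryo (median 7.51), with no overlap. The fold change was -2.02 (SE 0.24, adjusted p = 1.13e-05 by limma) in the deposited values and -1.02 (95% interval -1.55 to -0.49, adjusted p = 0.0123) after level adjustment, where NCP array 2 came level with the lowest total embryo array. Its NCP values sit in the middle of the receptor genes (mean percentile 45.9), so the fold gives a value against background rather than a ratio of 2 measured levels. *Cacna1s*, the pore of the same muscle channel, read 5.75, 6.67 and 5.36 in NCPs and 6.34 to 7.04 in total embryo (median 6.92). NCP array 2 overlaps total embryo here. Its deposited change was -0.85 (adjusted p = 0.0106 by limma) and its level-adjusted change -0.44 (95% interval -1.01 to 0.12, adjusted p = 0.258).

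Muscle marker genes were also lower in NCPs, as the brightest genes were in general (median -2.24 in the brightest of the 10 level groups). All 16 skeletal and heart muscle markers measured were lower in NCPs in the deposited values (median -3.59) and 9 of 16 after level adjustment. Their summed log2 value was 99.9 to 104 on NCP arrays and 155 to 162 on total embryo. In NCPs 4 of the 16 were above the floor by mean percentile, and 16 of 16 in total embryo. The 10 smooth muscle and mesenchyme markers were all lower too (5 after adjustment). Over all probe sets 27.5% were lower, and 8.29% after adjustment. The part of muscle RNA in the total embryo values of *Cacng1* and *Cacna1s* was not tested.

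*Scn7a* read 5.86, 5.29 and 5.86 on the NCP arrays and 7.10 to 7.85 on total embryo (median 7.46), without overlap. The fold change was -1.82 (SE 0.20, adjusted p = 5.57e-06 by limma) and -0.77 after level adjustment (95% interval -1.20 to -0.35, adjusted p = 0.0164). In NCPs its mean percentile among receptor probe sets was 58.7, and in total embryo 99.9. *Cacng5*, a TARP gene named here after its values were seen, read 5.28, 5.99 and 5.75 in NCPs and 5.82 to 6.09 in total embryo. Its deposited change was -0.26 (adjusted p = 0.194 by limma), its level-adjusted change -0.54 (95% interval -0.91 to -0.17, adjusted p = 0.0447), and that call was lost without NCP array 1 and without any single total embryo array.

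*Scn2a* and *Cacna2d1* had the brightest probe sets of the family in total embryo, although brightness of different probe sets does not rank their genes by amount of RNA. *Scn2a*, a sodium channel pore of brain neurons and their axons, read 6.37, 6.51 and 5.07 in NCPs and 7.82 to 8.94 in total embryo (median 8.12). *Cacna2d1*, an alpha2delta subunit of muscle and neuronal calcium channels, read 6.47, 6.39 and 6.93 against 7.84 to 8.38 (median 8.09). Neither gene's groups overlap. The deposited changes were -2.28 (SE 0.32, adjusted p = 3.87e-05) for *Scn2a* and -1.48 (SE 0.17, adjusted p = 9.41e-06) for *Cacna2d1*, both by limma. After level adjustment *Scn2a* stood at -0.61 (95% interval -1.37 to 0.15) and *Cacna2d1* at 0.05 (-0.30 to 0.40), neither past the test.

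*Scn2a* is also the gene with the most probe sets, 14, and they did not all move alike. Their deposited changes ran from -2.28 to 1.19. The 3 dimmest in total embryo were higher in NCPs and the 8 brightest were lower, and the NCP means of the 14 spanned only 4.92 to 6.41 where the total embryo means spanned 3.75 to 8.26. After level adjustment 1 of the 14 was past the test, at -0.94. Another of the genes, *Scn9a*, had 2 probe sets that gave 0.25 (not past) and 1.30 (past). The 2 of *Cacng2* gave -0.12 and 0.34, neither past, and the 2 of *Cacna2d1* gave -1.48 and -1.70, both past.

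**Figure D4:**
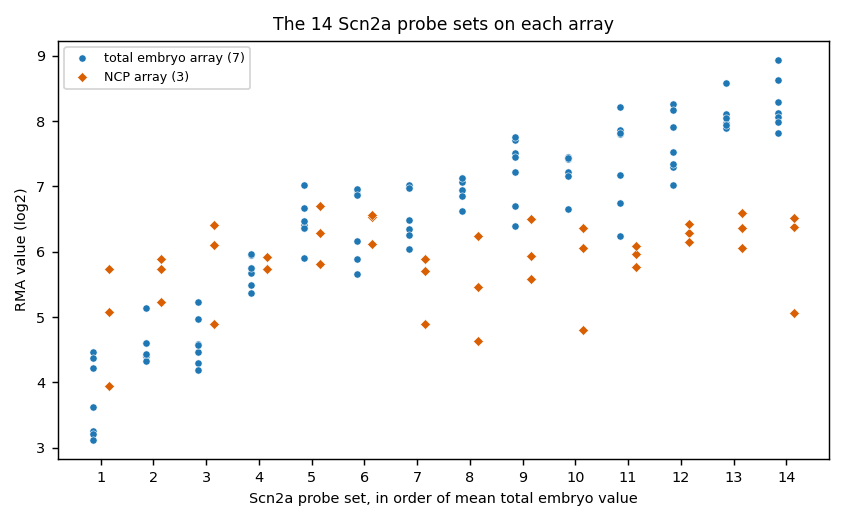
RMA values (log2, vertical axis) of the 14 *Scn2a* probe sets, ordered by mean total embryo value, on 7 total embryo arrays (circles) and 3 NCP arrays (diamonds). Total embryo means climb from 3.75 to 8.26 along the axis, while NCP means stay between 4.92 and 6.41.

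The channel genes with the highest NCP means were *Cacng4* (6.82), *Cacnb2* (6.66) and *Cacng7* (6.60). *Cacng4*, a TARP, read 6.91, 6.10 and 7.45 in NCPs and 6.24 to 6.66 in total embryo (median 6.53). *Cacng7*, another TARP, read 5.67, 7.04 and 7.09 against 6.0 to 6.73 (median 6.35). For both genes 2 NCP arrays lay above total embryo and 1 below, and the low array was array 2 for *Cacng4* and array 1 for *Cacng7*. Neither change passed the test, at 0.34 (limma adjusted p = 0.224) and 0.21 (limma adjusted p = 0.539) in the deposited values and 0.48 (95% interval -0.02 to 0.99) and 0.28 (-0.36 to 0.92) after level adjustment.

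Among the 5 pores of neuronal sodium channels, *Scn1a* (1.01) and *Scn8a* (1.0) were higher in the deposited values, *Scn2a* was lower, and *Scn3a* (0.07), a pore of embryonic neurons, and *Scn9a* (0.25), a pore of peripheral sensory and sympathetic neurons, did not pass. The second probe set of *Scn9a* did pass (1.30, limma adjusted p = 0.0013), with all NCP arrays above total embryo. With the mean of all probe sets of a gene *Scn9a* was also called higher. *Scn1a* and *Scn8a* lay under the floor in both groups. Their mean percentiles were 67.2 and 52.4 in NCPs, and 86.0 and 77.5 in total embryo. On the probe sets used, none of the 5 passed after level adjustment, where values ran from -0.61 to 0.01. Of the pores of nociceptive sensory neurons, *Scn10a* (1.08) was higher and *Scn11a* (0.67) did not pass, and neither passed after adjustment (0.02 and -0.54). Both genes lay under the floor in both groups. *Scn11a* varied most between the NCP arrays, at 5.26, 6.11 and 4.24 (SD 0.94).

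Of the sodium channel beta subunits, which anchor and tune the pore, *Scn2b* (0.91) and *Scn4b* (0.97) were higher and *Scn3b* (-0.98) lower in the deposited values. After level adjustment the 3 stood at 0.10, -0.16 and -0.01 and none passed. Taken as a family, the 11 sodium channel genes gave 5 higher and 3 lower in the deposited values and 0 higher and 1 lower after adjustment, where 3 of 11 were positive. Over all probe sets 39.6% were called higher and 27.5% lower in the deposited values, and 10.3% and 8.29% after adjustment. At an unadjusted p under 0.05 the level-adjusted sodium channel counts were also 0 and 1, beside 4851 and 4534 of all 28192 probe sets.

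Among L-type pores, *Cacna1c*, the cardiac and smooth muscle pore, and *Cacna1d*, a neuroendocrine pore, did not pass in either form (0.11 and 0.37 in the deposited values, -0.06 and 0.0034 after adjustment). Of the pores for transmitter release, the P/Q-type *Cacna1a* was higher (0.71), and the N-type *Cacna1b* (0.41), the channel of autonomic nerve endings, and R-type *Cacna1e* (-0.22) did not pass. After adjustment the 3 stood at 0.23, 0.13 and -0.46. Of the T-type pores, which open at low voltage, *Cacna1h* (0.55) and *Cacna1i* (0.83) were higher and *Cacna1g* (0.40) did not pass, and adjusted values lay between -0.17 and 0.10.

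All 4 alpha2delta genes passed in the deposited values, *Cacna2d2* (0.51), *Cacna2d3* (0.74) and *Cacna2d4* (0.92) as higher and *Cacna2d1* as lower. After adjustment the 4 were positive, from 0.05 to 0.36, and none passed. Of the beta subunits other than *Cacnb2*, *Cacnb1* of skeletal muscle (-0.54, adjusted -0.40) and *Cacnb4* (0.06, adjusted -0.37) did not pass. Of 6 TARP genes *Cacng3* (0.92) and *Cacng8* (0.88) were higher in the deposited values, and after adjustment only *Cacng5* passed. *Cacng2*, which traffics AMPA receptors in the cerebellum, stood at -0.12, with an adjusted change of -0.0017. The 24 calcium channel genes gave 10 higher and 3 lower in the deposited values, and 2 and 2 after adjustment. The shares over all probe sets were 39.6% and 27.5%, and 10.3% and 8.29% after adjustment.

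Several channel genes lie side by side in the genome (RefSeq order of protein-coding genes). *Cacng1*, *Cacng4* and *Cacng5* are consecutive on chromosome 11, with adjusted changes of -1.02, 0.48 and -0.54. *Scn1a*, *Scn9a* and *Scn7a* are consecutive on chromosome 2 (0.01, -0.49 and -0.77), and so are *Scn3a* and *Scn2a* (-0.25 and -0.61). *Cacng7* and *Cacng8* adjoin on chromosome 7 (0.28 and 0.37), as do *Scn2b* and *Scn4b* (0.10 and -0.16) and *Scn10a* and *Scn11a* (0.02 and -0.54) on chromosome 9. Of these genes only *Cacng1*, *Cacng5* and *Scn7a* passed after adjustment. The sign differences elsewhere involve changes that did not pass, some of them as small as 0.01 and 0.02. No test of position was made.

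Replicate spread differed between the groups. The SD of a channel gene had a median of 0.48 over the NCP arrays and 0.18 over the total embryo arrays, and was larger in NCPs for 33 of 35 genes. Over all genes these medians were 0.46 and 0.21. After level adjustment all 3 NCP arrays lay above the total embryo mean for 2 channel genes, below it for 5 (*Cacna1e* and *Cacnb4* besides the 3 called lower) and on both sides for 28. The 2 total embryo isolates differed by -0.62 (*Cacnb1*) to 0.35 (*Scn7a*) between isolate means, with a median of 0.01, and 1 gene differed by over 0.5.

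Channel partners and regulators, 26 measured of 28 listed, gave 10 higher and 6 lower in the deposited values and 2 higher and 3 lower after adjustment (the background shares are those above). The higher genes after adjustment were *Stac3* (0.78), an adaptor of the muscle calcium channel, and *Cabp1* (0.53), a calcium-binding protein that binds L-type pores. Lower were *Gem* (-1.25), a small GTPase that inhibits calcium channels by binding their beta subunits, *Nedd4l* (-0.79), a ubiquitin ligase that removes sodium channels from the membrane, and *Nalcn* (-0.45), a sodium leak channel. *Nalcn*, named here after its values were seen, did not pass in the deposited values (0.11, limma adjusted p = 0.522). Its sign thus turned with adjustment. *Stac3* was the 1 gene of the list above the floor in NCPs by mean percentile.

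Over all probe sets 39.6% were called higher and 27.5% lower in the deposited values, and 10.3% and 8.29% after adjustment. Beside these shares, marker lists for the cells a sort could hold gave the following. After adjustment 2 neural crest and glial markers were higher (*Sox10*, *Foxd3*) and 2 lower (*Erbb3*, *Fabp7*). Of 8 autonomic neuron markers 5 were higher and 0 lower, and 3 and 0 after adjustment (*Gata3*, *Isl1*, *Prph*). Of 12 pan-neuronal markers 3 were higher and 8 lower, and 3 and 0 after adjustment (*Gap43*, *Nefl*, *Nefm*). *Gap43* was lower in the deposited values (-1.71, limma adjusted p = 8.1e-05) and higher after adjustment (0.62), so its direction turned. These 3 neurofilament and growth cone genes passed the floor in NCPs by mean percentile, and the other 9 pan-neuronal markers did not. Among those 9, *Tubb3* (9.60, 4.81 and 8.03) and *Snap25* (7.55, 5.31 and 7.30) were above the floor on NCP arrays 1 and 3 and under it on array 2. *Stmn2* missed it narrowly, at a mean percentile of 94.99. Of 7 sensory neuron markers 6 were higher and 1 lower (1 and 0 after adjustment), and of 11 central nervous system markers 6 and 1 (2 and 1 after adjustment). All 8 housekeeping genes were lower in the deposited values, with 2 higher and 2 lower after adjustment. The part of neurons among the sorted cells in any channel value was not tested.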

How the data were processed

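The authors normalized Affymetrix mouse Gene 1.0 ST arrays by robust Multi-Array Average (RMA) in Expression Console 1.1 and deposited log2 values. Which arrays were normalized together is not given in the sources used here. The labels name a One-Cycle labelling kit and the study's methods WT-PICO amplification. Groups came from the source label, and replicate numbers follow accession order and pair nothing.

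Of 34760 probe sets, 6568 controls were left out and 28192 tested with limma 3.58.1 (R 4.3.3), with Benjamini-Hochberg adjustment over all of them at 0.05 and no filter on dim probe sets. Symbols came from the platform annotation (21640 probe sets with 1 symbol, 1321 with several, 5231 with none), and 3 several-symbol probe sets naming a channel gene were left out. Level adjustment fits to each array a lowess curve (span 0.3) of its departure from the total embryo mean against that mean, and removes it. It assumes that most genes of like brightness do not change, and was used as a second form of the data. The scripts were tested on simulated data. Figures used Python 3.11.15 and matplotlib 3.10.9. The number of arrays limits the precision.

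Values on every array are given for genes past the threshold in both forms with arrays that do not overlap, the 3 with the highest mean in each group, and the muscle genes *Cacna1s* and *Cacng1*; the rule also names *Scn4a*, not analysed here. The members, lists and tests were chosen with earlier results of these data known. Alternatives changed the scaling, the control arrays, the test, the filter, the threshold and the probe set, and left out each array in turn.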

Additional observations from a re-analysis of the deposited data

Results flagged for a closer look

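*Scn3a*, the pore of a sodium channel of embryonic neurons, read 5.06 on total embryo replicate 3, where the nearest of the other 6 total embryo arrays read 5.84 and the highest 6.24. The gap took up 0.661 of the group's range, above Dixon's 95% critical value for 7 samples. Chance gives such a gap in about 1 of 20 groups, and 1 of 35 channel genes showed it.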

How the results depend on the processing

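The deposited counts of 15 higher and 6 lower, and the median change of 0.40, moved with scaling and with how the total embryo arrays were counted. Calls over all 28192 probe sets moved too, from 11158 higher in the main run. Higher calls numbered 5 after quantile normalization again (median 0.21), beside 6370 of all, and 3 after cyclic loess (median 0.00065), beside 4777. They numbered 8 against the isolate with 3 arrays alone, beside 7554, and 3 with arrays averaged per RNA isolate, beside 5761. After a filter on dim probe sets 7 of 25 genes tested were higher (median 0.11), beside 3258 of 19303 probe sets. Against the total embryo array of the same title date the channel median was 0.49, beside 0.24 over all probe sets, and 0.01 after level adjustment. That run leaves 1 total embryo array, so its calls are not counted here. Centring arrays on their medians gave a channel median of 0.28, and the median of all probe sets then fell from 0.23 to 0.11. With the quantile setting it was 0.08, and with cyclic loess -0.0089. Cyclic loess turned the sign of *Cacna1i* (-0.17), *Cacnb4* (-0.44), *Scn4b* (-0.16) and *Scn8a* (-0.19), each called as deposited or after cyclic loess, and also of *Scn11a* (-0.64), *Scn9a* (-0.58), *Scn3a* (-0.29), *Cacna1c* (-0.05) and *Cacng2* (0.00065), called in neither. The quantile setting turned *Scn11a* (-0.28), *Scn9a* (-0.45), *Cacnb4* (-0.36), *Scn3a* (-0.27) and *Cacng2* (0.01), and median centring *Cacna1c* (-0.01), *Cacnb4* (-0.06) and *Scn3a* (-0.05), none called. The level-adjusted counts of 2 and 3 became 0 and 0 with either isolate alone, with arrays averaged per isolate and at an adjusted p of 0.01. Calls over all 28192 probe sets fell as well, from 2903 higher and 2336 lower to 1466 and 894 at 0.01. They were 1294 and 686 with the isolate of 4 arrays, 327 and 89 with the isolate of 3, and 32 and 1 averaged per isolate. After the dim filter 1 gene was higher, beside 2725 of 19303 probe sets. Leaving out each array in turn gave 14 to 17 higher and 5 to 7 lower in the deposited values (median 0.30 to 0.50) and 2 to 5 higher and 2 to 5 lower after adjustment (median -0.05 to 0.02). NCP array 2 gave the widest departure after adjustment, 5 and 5 without it, beside 3856 and 3459 of all probe sets. The causes were not tested. Where 1 total embryo array stood alone, its spread was taken from the NCP arrays. No paired analysis was made, since the labels pair no NCP array with a total embryo array. Most NCP values lie within the range of receptor genes, which limits every fold change here.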
